A study of Homo sapiens with 6 samples.

Results

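DNA methylation was measured at 10 homeobox genes that pattern the developing brain, namely EN1, EN2, GBX1, GBX2, BSX, VAX1, VAX2, OTX1, OTX2 and EMX2. Their regions were those of the authors' deposited region table (hg38) that overlap the RefSeq span of such a gene or lie within 10000 bases of it. This gave 91 regions of 35130 in the table, with at least 1 region for each of the 10 genes. The genes were grouped with earlier results of these data known, so the values below describe them and support no claim about the group. The samples were M07e cells, an established acute megakaryoblastic leukemia line grown with GM-CSF, as 3 DNMT3B knockout libraries made with CRISPR and 3 control libraries of WT genotype, all read by reduced representation bisulfite sequencing. This assay cuts DNA at CCGG and reads mainly CpG-rich fragments. DNMT3B is a de novo DNA methyltransferase. The labels do not say whether the knockout is 1 clone or several, nor whether libraries came from separate cultures. The table holds 1 mean per group and region, so depth and the spread between libraries are unknown, no value here has a replicate error, and no test between libraries could be made. The column read as the knockout is named M07e_3883, which matches no label, and was taken as the knockout because the other column is named M07e_WT. Every direction rests on that reading. Neither editing of DNMT3B nor the identity of the cells can be checked from these methylation levels.

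Homeobox genes encode transcription factors that bind DNA through a homeodomain. In the vertebrate neural tube, OTX2 marks the forebrain and midbrain and GBX2 the anterior hindbrain, and the border between them becomes the midbrain-hindbrain organizer, around which EN1 and EN2 are expressed. OTX1 and EMX2 act in the forebrain and cerebral cortex, VAX1 and VAX2 in the optic stalk and ventral retina, BSX in the hypothalamus, and GBX1 in the spinal cord and parts of the forebrain. Such genes usually have CpG islands, are held silent by Polycomb complexes in cells that do not use them, and are common sites of altered DNA methylation in cancer. None of them is a marker of the megakaryocyte lineage.

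The promoter windows of GBX1, GBX2 and EN2 are shown because they are the only windows of these genes in the RefSeq table (build GRCh38.p14, 8 of the 10 genes listed) that a deposited region overlaps. Each runs 5′ to 3′ on the strand of the gene, from 250 bases before the annotated start to 50 bases after it. Capitals mark CpG dinucleotides that lie within the bounds of a deposited region, whether or not they were read.
GBX1, chr7:151167645-151167944, minus strand: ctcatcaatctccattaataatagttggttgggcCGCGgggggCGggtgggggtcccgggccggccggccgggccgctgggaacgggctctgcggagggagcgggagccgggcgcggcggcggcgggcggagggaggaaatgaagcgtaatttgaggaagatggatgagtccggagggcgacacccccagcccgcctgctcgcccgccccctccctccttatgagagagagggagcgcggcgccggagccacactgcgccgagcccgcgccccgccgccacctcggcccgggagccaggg
GBX2, chr2:236168337-236168636, minus strand: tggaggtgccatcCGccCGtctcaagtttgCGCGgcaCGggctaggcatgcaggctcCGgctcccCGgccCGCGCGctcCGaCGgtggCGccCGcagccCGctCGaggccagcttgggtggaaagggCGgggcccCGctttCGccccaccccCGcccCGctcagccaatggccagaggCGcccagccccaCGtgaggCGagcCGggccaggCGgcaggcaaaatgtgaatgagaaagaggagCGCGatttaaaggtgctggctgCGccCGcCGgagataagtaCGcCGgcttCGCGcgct
EN2, chr7:155457879-155458178, plus strand: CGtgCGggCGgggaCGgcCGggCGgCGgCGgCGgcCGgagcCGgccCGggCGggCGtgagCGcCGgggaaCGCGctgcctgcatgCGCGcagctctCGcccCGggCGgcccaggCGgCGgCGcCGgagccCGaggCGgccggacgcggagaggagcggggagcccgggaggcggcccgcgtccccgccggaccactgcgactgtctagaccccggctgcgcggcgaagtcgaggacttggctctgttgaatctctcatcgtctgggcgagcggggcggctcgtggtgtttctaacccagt
The GBX1 window holds 36 CpG and 8 CCGG, and only the 45 bases farthest upstream, with 3 CpG, lie in a region. The GBX2 window holds 36 CpG, of which 35 lie in a region, and 5 CCGG. That region is 430 bases long and counts only 18 sites, so not all of the 35 were read. The EN2 window holds 50 CpG, of which 29 lie in 2 regions, and 11 CCGG. Both motifs read the same on either strand, and each CCGG contains a CpG. Of all 35116 windows of this length, 96.0% hold a CpG and 63.1% hold a CCGG, with a median of 14 CpG.

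Across the 10 genes, methylation differed in both directions. The site counts given below take cytosines of both strands, so a region can hold more sites than CpG. A region was called where the authors' q was under 0.01 and the group means differed by at least 25 percentage points. Of the 91 regions 15 were called (16.5%), against 6.74% of the whole table. Of these 9 were higher in the knockout (4.57% of the table) and 6 lower (2.17% of the table). The called regions belonged to 8 of the 10 genes: 6 genes had a higher region, 4 had a lower one, and EN1 and GBX2 had both. Nothing is read from these shares, because the genes were chosen on this contrast. The q is the authors'. The sources used here do not say how it was computed, so it cannot be taken to measure the spread between libraries. Adjusting the authors' Kolmogorov-Smirnov p over the whole table by Benjamini-Hochberg left 8 called regions, 4 higher and 4 lower. The share of the whole table called by that rule was not computed, so nothing is read from this count either.

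**Figure D1:**
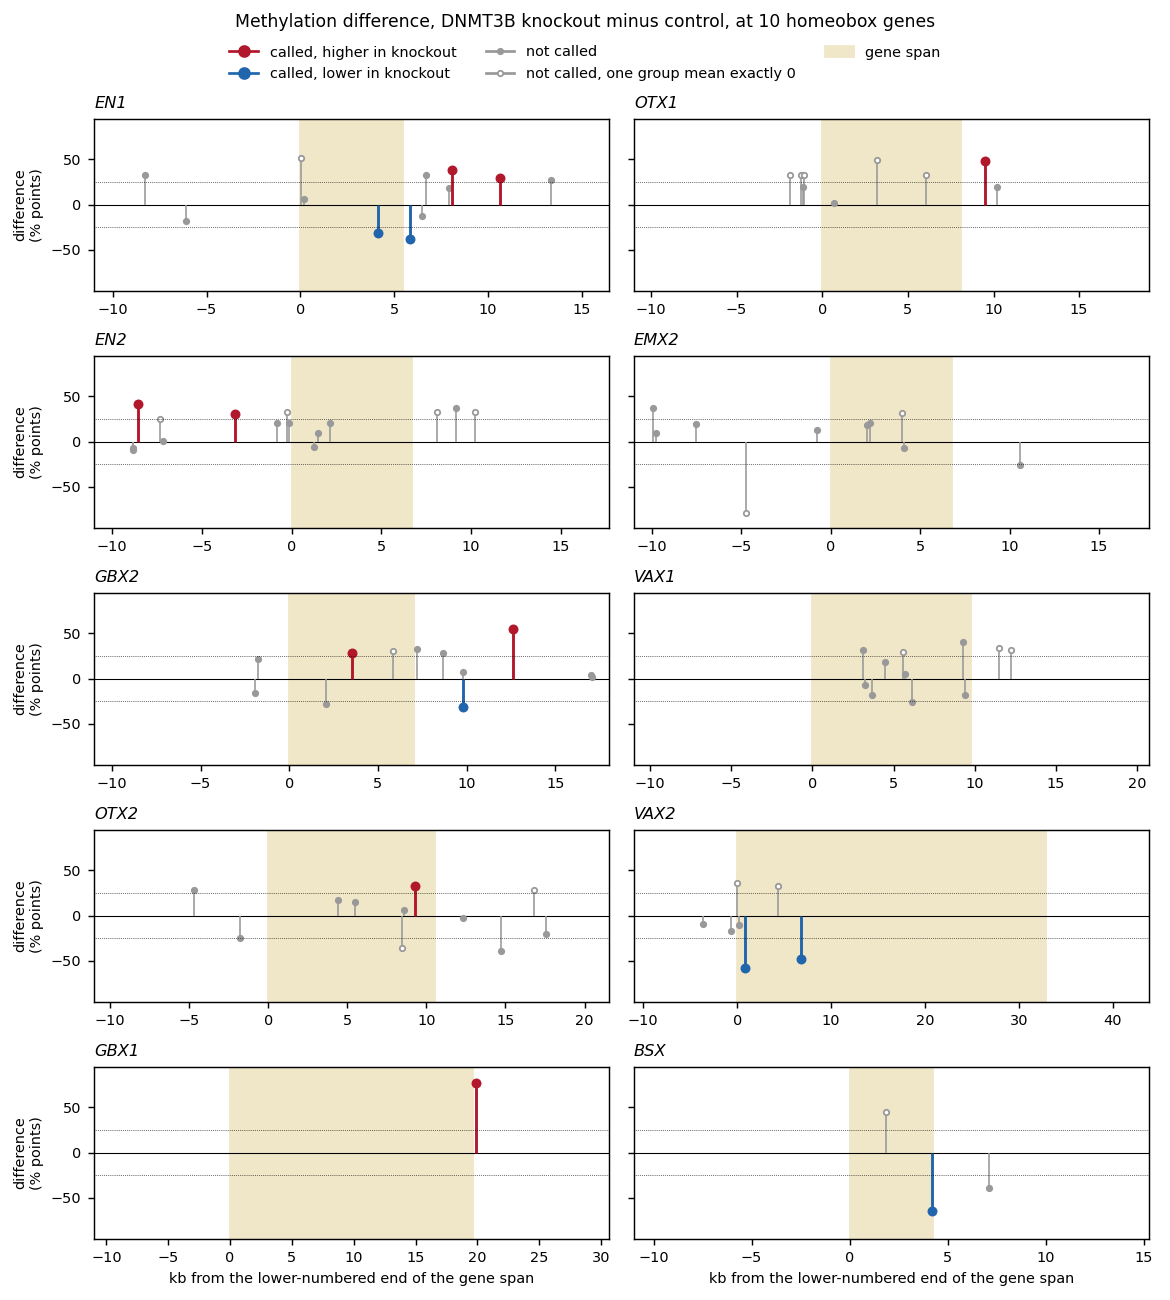
Difference in methylation (DNMT3B knockout minus control, percentage points, vertical axis) at each of the 91 regions, by distance in kilobases from the lower-numbered end of the gene span (horizontal axis), 1 panel per gene. Red and blue stems are the 9 called higher and 6 called lower regions, open grey points are regions where a group mean is exactly 0, and dotted lines mark 25 points; EN1 and GBX2 hold stems of both colours.

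EN1, an engrailed gene needed in mice for midbrain, cerebellum and limb patterning, had the most called regions, 4 of 12. Of these called regions, the 2 at the gene were lower in the knockout. Inside the gene, 20 sites were at 26.5% in the knockout and 57.7% in the control (chromosome 2, 118846234 to 118846330, q = 0.00112). Another 17 sites, 248 bases beyond the higher-numbered end of the gene, were at 50.2% in the knockout and 87.9% in the control (118847896 to 118848093, q = 0.00691). The 2 regions farther out on the same side were higher. At 2575 bases from the gene, 19 sites were at 70.7% in the knockout and 32.2% in the control (118850223 to 118850296, q = 0.0015). At 5095 bases, 23 sites were at 30.9% in the knockout and 1.93% in the control (118852743 to 118852874, q = 0.0028). Between the nearer higher region and the lower one beside the gene lie 2129 bases. Of the 8 EN1 regions not called, 6 were higher and 2 lower. The uncalled region with the most sites, 24 of them over an end of the lncRNA gene LINC01956, was at 3.07% in the knockout and 20.9% in the control (q = 0.065).

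EN2, the second engrailed gene, had 2 called regions of 15, both higher in the knockout and both upstream, within the lncRNA gene EN2-DT. At 8384 bases from EN2, 14 sites were at 43.3% in the knockout and 1.27% in the control (chromosome 7, 155449348 to 155449745, q = 0.00433). At 3013 bases, 18 sites were at 43.6% in the knockout and 12.9% in the control (155454809 to 155455116, q = 0.00268). Of all 15 EN2 regions 12 were higher. The promoter region, whose CpG are capitalised at the start of the EN2 window above, held 46 sites, the most of any region here. It was at 32.4% in the knockout and 0% in the control (155457772 to 155457993, ending 136 bases before the gene) and was not called (q = 1), although the authors' Mann-Whitney p was 1.69e-06. The 5 sites next to it, nearer the start, were at 32.8% in the knockout and 12% in the control (q = 1). Inside EN2, 3 regions differed by between -5.36 and 20.6 points, the lowest q being 0.392.

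GBX2, which sets the hindbrain side of the organizer, had 3 called regions of 12. Inside the gene, 5 sites were at 36.3% in the knockout and 8.22% in the control (chromosome 2, 236164874 to 236164921, 3465 bases downstream of the start, q = 8.28e-06). Upstream, within the antisense gene GBX2-AS1, 2 regions that lie 2751 bases apart went opposite ways. The nearer, 5 sites over 15 bases, was at 15.0% in the knockout and 46.8% in the control (236171136 to 236171150, q = 0.00344). The farther, 7 sites, was at 71.9% in the knockout and 17.3% in the control (236173902 to 236173948, 5516 bases from the start, q = 1.21e-05). The nearer region follows directly on another 5 sites that were at 55.6% in the knockout and 48.5% in the control (q = 1). The region over nearly all of the printed GBX2 window held 18 sites at 34.5% in the knockout and 2.04% in the control and was not called (q = 0.0483). The GBX2 region with the most sites, 25 of them 1633 bases beyond the other end, was at 36.9% in the knockout and 15.7% in the control (q = 0.016).

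OTX2, which specifies forebrain and midbrain, had 1 called region of 11. Its 23 sites were at 35.6% in the knockout and 3.31% in the control (chromosome 14, 56809067 to 56809277, q = 0.00912). OTX2 has 2 listed starts, and these sites lay 1202 bases downstream of the one at the higher-numbered end and upstream of the other. A region of 6 sites lying 173 bases downstream of that other start was at 24.6% in the knockout and 9.9% in the control (q = 0.759). The other OTX2 regions were split, 5 higher and 5 lower. The nearest region to the called one, with 8 sites and farther into the gene, was at 27.8% in the knockout and 21.1% in the control (q = 1). The 7 sites beside those were at 0% in the knockout and 36.0% in the control (q = 1). A region of 5 sites outside the gene was highly methylated in both groups, at 83.7% in the knockout and 86.1% in the control (56812191 to 56812209). Over the 4 genes of the midbrain-hindbrain border, 10 of 50 regions were called (20.0%, 7 higher and 3 lower), against 6.74% of the table. Called higher regions were 4.57% of the table and called lower ones 2.17%. EN1 alone held 4 of the 10. Of the 19 regions at OTX1 and EMX2 1 was called (5.26%). Of the 18 at VAX1 and VAX2 2 were called (11.1%), both lower. BSX had 1 called region of 3, and the only GBX1 region was called. The genes were chosen on this contrast, so no ranking of these groups is read from their shares.

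**Figure D2:**
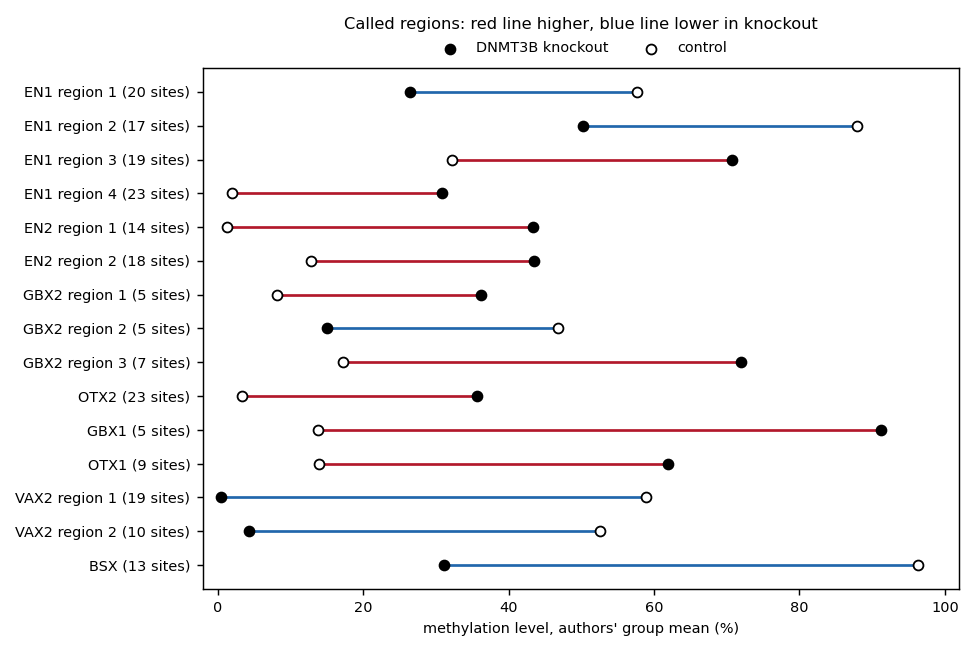
Group mean methylation levels (%, horizontal axis) of the 15 called regions, filled points for the DNMT3B knockout and open points for the control, with regions of a gene numbered by position. The lines are blue where the knockout is lower (EN1 regions 1 and 2, GBX2 region 2, VAX2 and BSX) and red where it is higher; GBX1 has the widest gap, 91.2% in the knockout and 13.9% in the control.

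GBX1, the paralog of GBX2, had a single region in the table, and it showed the largest gain of the 91. Its 5 sites were at 91.2% in the knockout and 13.9% in the control (chromosome 7, 151167900 to 151167957, 206 bases upstream of the start, q = 5.62e-05). The 3 capitalised CpG at the 5′ end of the printed GBX1 window lie within it, and its 5 sites need not be 5 separate CpG. The remaining 33 CpG of that window lie in no region of the table, so the rest of the promoter is not described by this value.

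OTX1, a forebrain and sense organ factor, was higher in the knockout in all 9 of its regions, of which 1 was called. That region, 9 sites lying 1361 bases outside the gene, was at 62.0% in the knockout and 14.0% in the control (chromosome 2, 63059192 to 63059289, q = 0.00897). In 5 of the other 8 the control mean was exactly 0, and 4 of those had a knockout mean between 32.4% and 33.3%. The remaining one of the 5, 11 sites inside OTX1, was at 49.0% in the knockout and 0% in the control (63052844 to 63053075, q = 1). The authors' Mann-Whitney p there was 0.000322. The OTX1 region with the most sites, 15 inside the gene, was at 33.1% in the knockout and 0% in the control (q = 1). The 4 regions below the lower-numbered end of OTX1 each overlap a promoter window that RefSeq lists for the antisense gene EHBP1-AS1. The region nearest the listed promoter, 5 sites, was nearly unmethylated, at 2.41% in the knockout and 0.644% in the control.

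EMX2, which controls the size and areas of the cerebral cortex and also acts in the urogenital system, had no called region among 10. It nevertheless held the largest difference downward among the 91 regions. Its 7 sites, 4737 bases upstream within the antisense gene EMX2OS, were at 0% in the knockout and 78.8% in the control (chromosome 10, 117537988 to 117538009). The authors' Mann-Whitney p there was 1.19e-07, while their Kolmogorov-Smirnov p and q were both 1. In the other direction, 5 sites at 89.7% in the knockout and 69.0% in the control had a q of 0.00641 but differed by 20.8 points, under the 25 required. The region with the most sites, 14 inside the gene, was at 31.4% in the knockout and 0% in the control (q = 1). The other EMX2 regions had q-values of at least 0.0762, and 3 of the 10 regions were lower.

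VAX2, a factor of the ventral retina, had 2 called regions of 7, both lower and both inside the gene. Near the lower-numbered end, 19 sites were at 0.522% in the knockout and 58.9% in the control (chromosome 2, 70901386 to 70901485, 810 bases from that end, q = 4e-09, the lowest q of the 91). Another 10 sites, 5869 bases farther in, were at 4.36% in the knockout and 52.6% in the control (70907355 to 70907394, q = 0.000134). The region across that end of the gene, 17 sites, was at 36.0% in the knockout and 0% in the control (q = 1). The region with the most sites, 21 inside the gene, was at 32.4% in the knockout and 0% in the control (q = 1). In all, 5 VAX2 regions were lower and 2 higher. VAX1, its paralog in the optic stalk and hypothalamus, had no called region among 11, with 7 higher and 4 lower. The nearest to a call were 19 sites inside the gene at 40.6% in the knockout and 9.43% in the control (q = 0.0125) and 11 sites at 87.3% in the knockout and 47.1% in the control (q = 0.0246).

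BSX, a factor of hypothalamic neurons that regulate feeding, had 3 regions, with differences of -65.1, 45.2 and -39.5 points. The largest called loss of the 10 genes was here: 13 sites from 51 bases downstream of the start were at 31.1% in the knockout and 96.2% in the control (chromosome 11, 122981710 to 122981783, q = 1.44e-06). Upstream, 9 sites were at 7.41% in the knockout and 46.9% in the control and were not called (q = 0.05). Inside the gene, 9 sites were at 45.2% in the knockout and 0% in the control, also not called (q = 1).

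The lower and higher regions had different control levels. The 6 called lower regions had knockout means from 0.522% to 50.2% (median 20.8%) and control means from 46.8% to 96.2% (median 58.3%). The 9 called higher regions had knockout means from 30.9% to 91.2% (median 43.6%) and control means from 1.27% to 32.2% (median 12.9%). The call itself fixes part of this, since a region under 25% in the control cannot lose 25 points. Over the table, the medians were 14.9% (knockout) and 58.1% (control) for called lower regions and 62.0% (knockout) and 15.8% (control) for called higher ones. By position, 4 of the 6 lower regions lay inside their gene, and 7 of the 9 higher ones lay outside. Of all 91 regions 35 lay inside a gene, 53 outside and 3 across an end, with 17.1% called inside and 17.0% outside. Called lower regions were 11.4% of those inside and 3.77% of those outside, and called higher ones 5.71% and 13.2%. No test was made of that split, and it was not computed over the table. Since the genes were chosen on this contrast, no layout is read from it. Of the 15 called regions 4 overlapped another annotated gene, EN2-DT or GBX2-AS1, so they cannot be assigned to the homeobox gene alone. Called regions had a median of 14 sites over 97 bases, and regions not called 8 sites over 68.5 bases. Over the table, called regions had a median of 10 sites and regions not called 6, both over 57 bases. Whether more sites make a low q easier to reach was not tested.

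**Figure D3:**
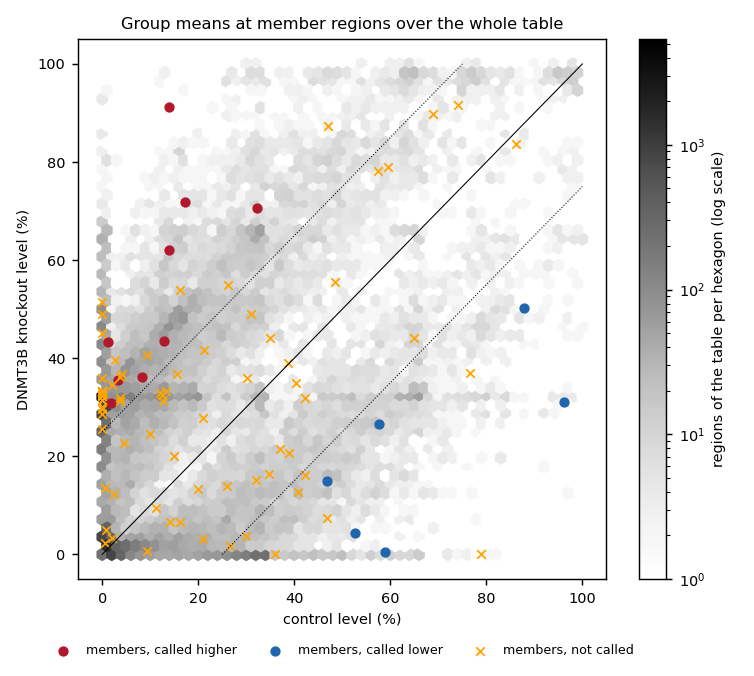
Methylation level in the DNMT3B knockout (%, vertical axis) against the control (%, horizontal axis) for the 91 regions (coloured) over all 35130 regions of the table (grey hexagons, log-scaled count); dotted lines mark differences of 25 points. The 6 called lower regions lie at control levels of 46.8% and above, and 19 of the 91 regions lie on the left edge, at a control mean of exactly 0.

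Over all 91 regions, knockout means had a median of 32.4% and control means one of 14.0%. All regions of the table had medians of 30.9% (knockout) and 7.59% (control). The 91 differences had a median of 19.3 points (95% order-statistic interval over regions 6.71 to 28.0), beside 17.4 points over the table. That interval treats regions as independent, although some adjoin, and does not measure the spread between libraries. Higher regions made up 62 of the 91 (68.1%), and 68.4% of the table. Differences of at least 25 points in either direction, whatever their q, were found in 51 of the 91 (56.0%) and in 52.0% of the table. A group mean was exactly 0 in 21 of the 91 (23.1%) and in 10807 regions of the table (30.8%). With these regions left out, which was decided after seeing the data, the median was 8.19 points here and 3.34 points in the table. In 15 of the 91 regions (16.5%) the control was at 0 and the knockout between 25% and 33.3%, as in 21.0% of the table. The sources used here do not say how group means were formed where a library lacked a site.

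None of the regions with a mean of exactly 0 was called, here or in the table. All 21 of them here had a Kolmogorov-Smirnov p of 1, as did 10736 of the 10807 in the table. All 21 nevertheless differed by at least 25 points, as did 9355 of the 10807 in the table. When the authors' Mann-Whitney p was adjusted over the whole table by Benjamini-Hochberg instead, 20 regions of the 10 genes passed 0.01 and 25 points, against 8.70% of the table. These 20 were 13 higher and 7 lower and held 14 of the 15 called by q, the exception being the EN2 region 3013 bases upstream (adjusted Mann-Whitney p of 0.0127). The 6 added were the zero-mean regions already described at the EN2 promoter, inside OTX1, upstream of EMX2 and across the lower-numbered end of VAX2, the VAX1 region of 19 sites with both means above 0, and 10 sites across the lower-numbered end of EN1. That EN1 region was at 51.5% in the knockout and 0% in the control (118842133 to 118842270), with an adjusted Mann-Whitney p of 0.00143. By this measure each of the 10 genes had at least 1 region past the threshold. The share of all genes with such a region was not computed, and these genes were chosen on this contrast, so nothing is read from that.

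**Figure D4:**
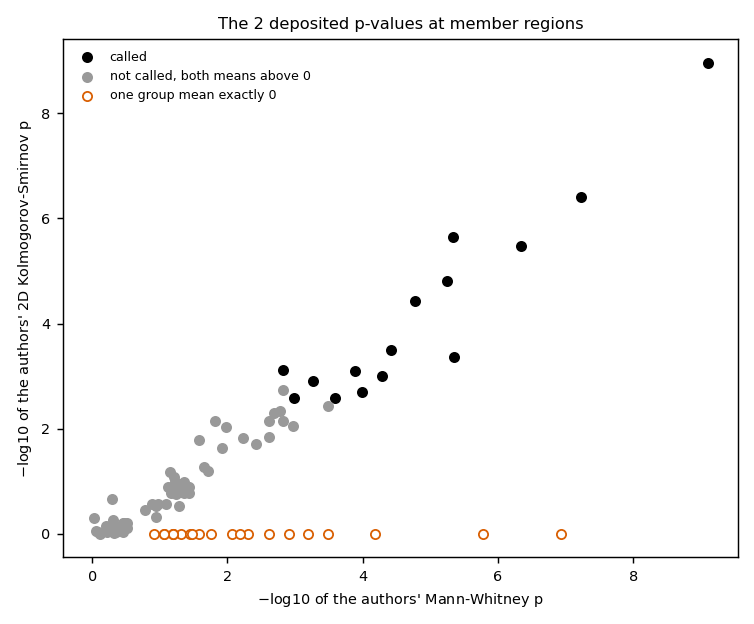
The authors' 2 p-values at the 91 regions, each as −log10, Mann-Whitney on the horizontal and Kolmogorov-Smirnov on the vertical axis, with called regions in black and regions with a group mean of exactly 0 as open circles. The 21 open circles all sit at a Kolmogorov-Smirnov p of 1, including the EMX2 region with a Mann-Whitney p of 1.19e-07.

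At the edge of the 10000-base limit, the farthest regions included were at GBX2, 9944 and 9967 bases away, with differences of 4.21 and 1.27 points. The nearest left out were at EN1, 10086 bases away with a difference of -4.76 points, and 11118 bases away with 18 sites at 6.79% in the knockout and 35.2% in the control (118858766 to 118859076, q = 0.00785). At the edge of the q limit, OTX2 and OTX1 lay just inside and the VAX1 region just outside, with the values given above. The smallest called difference was 28.0 points, at GBX2. An OTX2 region of 12 sites at 1.68% in the knockout and 26.7% in the control fell just short of 25 points, with a q of 0.0292.

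Other genes of brain patterning, a list of 35 signals and transcription factors such as FGF8, WNT1, SHH and PAX2, were counted by the same rule for comparison. They had 237 regions apart from the 91, of which 27 (11.4%) were called, against 6.74% of the table. Of these 16 were higher (6.75%, against 4.57% of the table) and 11 lower (4.64%, against 2.17% of the table). The 237 differences had a median of 14.3 points, beside 17.4 points over the table. Of the 35 genes 18 had a called region, 13 a higher one, 10 a lower one and 5 both. The share of all genes with a called region was not computed, so nothing is read from these gene counts. The largest differences included IRX1, a factor of neural plate and heart (74.5% in the knockout and 12.5% in the control), and the nuclear receptor gene NR2F1 (74.2% in the knockout and 19.0% in the control). FEZF2, a factor of deep-layer cortical neurons, was at 65.3% in the knockout and 10.5% in the control. Regions of both directions were found at PAX2, a midbrain-hindbrain and kidney factor, and at the floor plate factor FOXA2. At PAX2 they were at 95.6% in the knockout and 42.6% in the control, and at 21.7% in the knockout and 63.5% in the control. At FOXA2 they were at 59.6% in the knockout and 8.57% in the control, and at 32.3% in the knockout and 75.1% in the control. NKX2-2, a factor of the ventral neural tube, had 2 lower regions, at 19.6% in the knockout and 71.4% in the control and at 9.52% in the knockout and 57.1% in the control.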

How the data were processed

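DNA from 3 DNMT3B knockout and 3 control M07e libraries was digested with MspI, bisulfite converted and sequenced, per the labels' protocols. Build hg38 and the tools Bismark, HISAT2, methylKit, Trimmomatic and FastQC are listed without versions or roles in the submitters' processing notes. No source used here names the program that made the region table. The authors deposited, per region, a mean methylation percent for each group, the difference in percentage points, the number of sites, 2 p-values and a q-value, per the file headers. No values per library or read counts were analysed here, so depth and precision are unknown and no new test was run.

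Positions were checked against RefSeq promoter windows. In all 2489 regions lying wholly inside a window, the first and last base fell in a CpG when the file's half-open interval was moved up by 1 base, against 962 without the move. Printed positions are 1-based on hg38 after this move. In 1886 of the 2489 the number of sites exceeded the number of CpG, so the site count takes cytosines of both strands. The deposited difference matched that of the group means within 0.01 points in all but 1 of the 91 regions. Gene spans came from RefSeq (GRCh38.p14), without strand or exons; strand and start came from the promoter table. Named regions are all called regions, each gene's region with the most sites and those beside a threshold; regions with a mean of 0, adjoining regions and a few others were named after their values were seen. For the comparison list, the 6 genes with the largest called differences are named. The members, lists and alternatives were chosen with earlier results of these data known. Benjamini-Hochberg adjustment ran over all 35130 regions and was tested on simulated data. Intervals of medians are binomial order-statistic intervals over regions at 95%. Python 3.11.15, pandas 2.3.3, numpy 2.4.6, scipy 1.17.1 and matplotlib 3.10.9 were used.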

Additional observations from a re-analysis of the deposited data

How the results depend on the processing

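The number of called regions at the 10 genes (15, as 9 higher and 6 lower) moved by over 1.5 times under 5 alternatives. It was 7 (4 higher, 3 lower) at a difference of at least 40 points, 6 (3 and 3) at a q under 0.001, and 8 (4 higher) with the Kolmogorov-Smirnov p adjusted over the table. It was 6 of 38 regions (2 higher) for regions overlapping the gene spans and 8 of 46 (3 higher) for regions within 1000 bases, beside 15 of 91. The last 2 leave out regions by construction. For the changed limits on the difference, the q and the Kolmogorov-Smirnov p, no share of the whole table was computed. The other alternatives moved neither the count nor either direction by over 1.5 times: a difference of 10 points, a q under 0.05, the adjusted Mann-Whitney p, at least 5 sites, 50000 bases, positions without the move of 1 base, and leaving out regions with a mean of 0. Leaving out each gene in turn gave 11 to 15 called regions and median differences of 17.8 to 20.3 points; the count of 11 is without EN1. The median stayed positive in every alternative run, from 8.19 to 21.2 points. Differences recomputed from the group means matched the deposited ones at all 15 called regions within 0.01 points. No paired analysis was possible because the table holds no values per library, and for the same reason leaving out single replicates was not run. With unknown depth, no limit of detection can be given.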
